A study of Mus musculus with 8 samples.

Results

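Peaks of N6-methyladenosine (m6A), a methyl mark on adenosines of RNA, were examined in transcripts of the mitogen-activated protein (MAP) kinase cascade and of the dual-specificity phosphatases in mouse calf muscle. Members were all genes whose name in a peak list matched Map2k, Map3k, Map4k, Mapk, Mapkapk or Dusp followed by a digit and that held a peak in at least 1 list, which gave 40 of 5987 called genes. They were 10 MAP3K, 5 MAP2K, 5 MAPK, 1 MAPKAPK and 16 DUSP genes and 3 names of other kinds, the genes Mapk1ip1 and Mapk1ip1l and the long noncoding RNA Map2k3os. The name rule does not take older symbols, and Zak, the older name of Map3k20, was therefore left out.

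The muscle was the gastrocnemius of 10-week-old male C57BL/6 mice. The denervated group was taken 14 days after denervation, and the innervated control group was the muscle of the opposite leg, labelled untreated. Each group had 2 m6A immunoprecipitation (IP) libraries with matching input libraries (8 in all), and what was analysed was a list of called peaks for each of the 4 IP libraries. The labels do not say that replicates came from separate animals, so the spread between them may be technical. No genetic change is labelled for either group. The control leg belonged to an operated animal, as the word contralateral implies, and no muscle of an unoperated mouse was analysed here.

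MAP kinases act at the end of a relay in which a MAP3K phosphorylates a MAP2K and the MAP2K phosphorylates the MAP kinase on a threonine and a tyrosine of its activation loop. The main arms end in the ERK kinases, the p38 kinases and the JNK kinases, and p38 and JNK respond to stress and cytokines in muscle as in other tissues. Dual-specificity phosphatases that carry a kinase-interaction domain remove both phosphates, and several of them are induced by the pathway that they switch off. m6A is placed while RNA is made, mostly at adenosines within a short consensus, and is read by proteins that affect the stability and translation of the transcript.

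Reference bases were at hand for 6 members whose peaks overlapped a window of the RefSeq table of gene starts (GRCm38.p6), which covers 250 bases before and 50 bases after each start. A stretch of 30 of the peak bases in the window is shown for each, and no peak sequence outside these windows could be read. The stretch of Dusp27 holds its match and begins at 166127878, where its region begins at 166127898. All lie on the minus strand and are written 5′ to 3′, with capitals for a match to the m6A consensus. The 18 words searched, on the transcribed strand unless stated, read A, G or T, then A or G, then AC, then A, C or T (GGACT is an example), and matches can overlap.
Dusp1: agtgaaGGACTggcgggaggaaagcgcggt
Dusp27: aagagaaagctcccgtccctctctAGACCa
Map2k3os: agaTGACTgccctacccactcgggggattg
Mapk1ip1: gaggagtgtcttGGACTagtccgctggcag
Dusp14: gggaggcgcgcgaggccggcgggcagaagc
Map3k10: gggcggccgcccccggggcgccgccatccc

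In the order printed, the stretches lie at chr17:26508443-26508472, chr1:166127849-166127878, chr11:60931838-60931867, chr7:138846188-138846217, chr11:84068328-84068357 and chr7:27674453-27674482. The peak bases in these windows held a match in 4 of the 6 genes. The bases examined were 50 for Dusp1, Dusp27, Map2k3os and Dusp14, 72 for Map3k10 and 110 for Mapk1ip1, the last 2 read from the window of the neighbouring genes Zfp607b and Ppp2r2d on the opposite strand. Of the first 50 transcribed bases of 32851 RefSeq starts, 54.4% held a match on the transcribed strand and 80.4% on either strand, and 5.76% held GGACT. A match, held by 3 of the 4 members with 50 bases, is a description of these letters and not a methylated site. The region at the start of Dusp1 was called in 3 libraries, that of Mapk1ip1 in 3, that of Dusp27 in 2, and those of Map2k3os, Dusp14 and Map3k10 in 1 library each.

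Member genes were called in every library. The lists held 63 and 67 member peaks in innervated replicates 1 and 2 and 73 and 66 in denervated replicates 1 and 2, in 31, 33, 34 and 34 genes. These were 0.675%, 0.650%, 0.745% and 0.695% of the 9327, 10300, 9804 and 9496 peaks of the lists, and their Wilson 95% intervals overlapped (the lowest bound was 0.513% and the highest 0.935%). The intervals take peaks as independent, but peaks share genes and the same genes recur across lists, so their overlap is no test between libraries or groups. The means were 65 ± 2.83 (SD, n = 2) innervated and 69.5 ± 4.95 (SD, n = 2) denervated peaks, a difference of 4.5 peaks that was smaller than the larger of these spreads. The read depth behind the lists is unknown. In bulk muscle, fewer cells of a type and less RNA per cell cannot be told apart, and a peak can appear or vanish with the level of its RNA as well as with its m6A.

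Members recurred across libraries as follows. Of the 40 genes, 24 were called in all 4 libraries, 7 in 3, 6 in 2 and 3 in 1 library. That was 60.0% in all 4 (Wilson 95% interval 44.6% to 73.7%), against 48.8% of all called genes, a share that lies inside the interval. Genes seen in a single library made up 7.5% of members (2.58% to 19.9%) and 19.7% of all other called genes. The 3 were Dusp4, Dusp5 and Dusp13, all phosphatases. The 89 member regions, in which overlapping peaks of the lists were linked, gave 34 regions (38.2%) in all 4 libraries, against 34.6% of all regions, and 22 regions in 1 library.

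**Figure D1:**
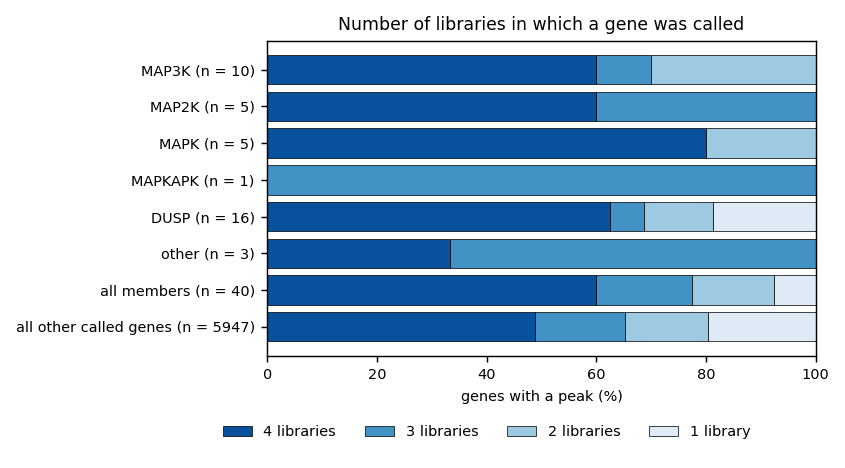
Share of called genes (%, horizontal axis) that held a peak in 4, 3, 2 or 1 of the 4 IP libraries, for each family, for all 40 members and for the 5947 other called genes. The darkest part is 60.0% for all members and 48.8% for the other genes, and the single-library part is 7.5% and 19.7%.

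The terminal kinases were unevenly called along the arms of the cascade. Of the 13 MAPK symbols in RefSeq, 5 held a peak. The share of all RefSeq symbols with a peak was not computed, so such counts have no background here for any family. Of the 5, 4 (80%) were called in all 4 libraries, against 48.8% of all called genes, and this was not tested. None of the 3 JNK genes (Mapk8, Mapk9 and Mapk10) had a peak in any list, nor did the p38 genes Mapk11 and Mapk13 or the atypical Mapk15. The called genes were the p38 kinases Mapk12 and Mapk14, the ERK5 gene Mapk7, and the atypical ERK genes Mapk6 and Mapk4. A gene without a peak was not shown to lack m6A, because its input level was not measured here.

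Mapk7 encodes ERK5, a large kinase with its own transcriptional activation domain, and had the most regions of the MAPK family called in every library. Its 3 shared regions lay side by side on chromosome 11, minus strand, from 61490099 to 61490648, from 61490747 to 61491242 and from 61491341 to 61491589. Peaks covered 699 and 1044 bases in innervated and 1095 and 996 bases in denervated libraries. The groups overlapped, and innervated replicate 1 was the lowest. A further region from 61491639 to 61493054, with blocks of 199 bases in all, was called in both denervated libraries and in no innervated one. A block of this region in denervated replicate 2 stood 49 bases from the nearest innervated peak block. The peak of denervated replicate 1 lay at bases 1214 to 1363 of the span, whereas all innervated blocks began at base 2679 or later.

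Mapk14, the p38 alpha kinase, carried 2 regions in all 4 libraries near its 3′ end, at 98.2% and 99.4% of the span. On chromosome 17 these ran from 28747209 to 28747508 and from 28747807 to 28748305. They covered 600 and 699 bases in innervated and 749 and 500 bases in denervated libraries, with overlapping groups. Mapk12, the p38 gamma kinase that is abundant in skeletal muscle, had 1 region in all 4 libraries, on chromosome 15 from 89130634 to 89131031. It covered 349 and 398 bases in innervated libraries and 349 bases in each denervated one. Mapk6, the ERK3 gene, had 1 region in all 4 libraries, on chromosome 9 from 75397675 to 75398369, with 546 to 645 bases per library.

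Mapk4, the ERK4 gene, was the only member called in both denervated and no innervated library. It held 5 peaks in denervated replicate 1 and 4 in denervated replicate 2, and 0 in each innervated library. Peaks covered 749 and 1244 bases, a mean of 996.5 ± 350.0 (SD, n = 2), on chromosome 18, minus strand. Of its 6 regions, 3 were shared by both denervated libraries, from 73930470 to 73930668, from 73930817 to 73930917 and from 73970840 to 73971237. The first 2 of these lay at 98.5% and 98.3% of the gene span and the last at 68.9%. The scores of the libraries differed: the best Mapk4 peak stood at percentile 93.7 in denervated replicate 2 and at 33.1 in denervated replicate 1, where 100 is the smallest score of a list. The difference of 996.5 bases had an exact permutation p of 0.333 (two-sided), the smallest that 2 against 2 libraries allow. Among all called genes, 3.42% were called in both denervated and no innervated library and 3.14% the other way round, and 1 of 40 members (2.5%) in each direction was no more than this background.

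**Figure D2:**
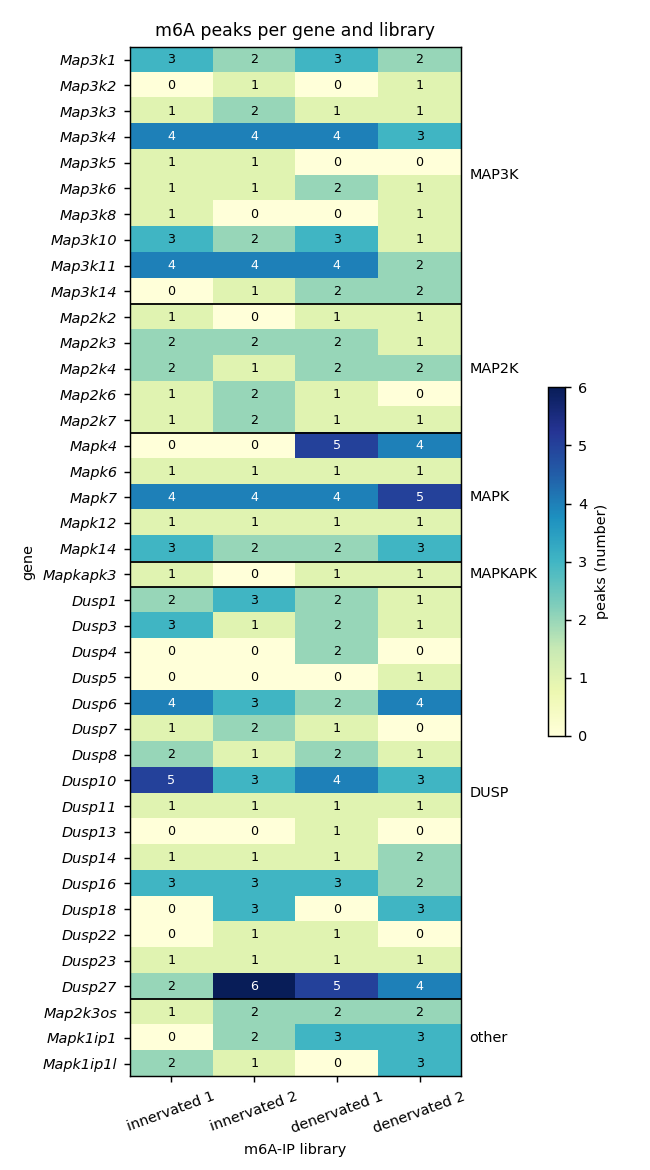
Number of peaks (cell label and colour) for each of the 40 genes (rows, by family) in each IP library (columns). Mapk4 is filled only in the denervated columns and Map3k5 only in the innervated columns, and Dusp27 reaches 6 peaks in innervated replicate 2.

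Of the MAP2K genes, which phosphorylate the MAP kinases, 5 of 7 were called. In all 4 libraries were 3 of the 5 (60%), against 48.8% of all called genes, and this was not tested. None of the 5 was specific to a group, where 3.42% of all called genes were denervated only and 3.14% innervated only. Both JNK-activating genes, Map2k4 and Map2k7, and the p38-activating Map2k3 were called in all 4 libraries. The other p38-activating gene, Map2k6, was called in 3, and of the ERK-activating pair Map2k2 was called in 3 libraries and Map2k1 in 0. Map2k5, the activator of ERK5, had no peak. Map2k4 had the widest region of this family, 1099 covered bases on chromosome 11 between 65689741 and 65691762, with 951, 999, 1000 and 900 bases in innervated 1 and 2 and denervated 1 and 2. These values lay close together in both groups. Map2k7 covered 250 and 400 bases in innervated and 399 bases in each denervated library.

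Map2k3 and Map2k6 covered fewer bases in denervated libraries. Map2k3 had 445 and 495 bases innervated and 395 and 247 bases denervated, and its spliced region from 60943164 to 60943583 on chromosome 11 was absent in denervated replicate 2. Map2k6 had 198 and 296 bases innervated and 197 and 0 bases denervated, so the nearest libraries of the groups were 1 base apart (exact permutation p = 0.333 for each gene, two-sided). Map2k2 was missing in innervated replicate 2 only, with 198, 150 and 198 bases in the other libraries. Map2k3os, the noncoding RNA that starts on the opposite strand near the Map2k3 start, was called in all 4 libraries. Its shared region lay on chromosome 11 from 60921087 to 60921720. The highest percentile of a Map2k3os peak was 87.3 to 98.2 over the libraries, whereas that of a Map2k3 peak was 0.0527 to 20.7. The lists give a strand for each peak, and the library kit preserved strand per the labels' protocols.

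The MAP3K genes, the entry kinases of the cascade, had 10 of 18 symbols called, 6 of them (60%) in all 4 libraries. Among all called genes 48.8% were in all 4, and this was not tested. The MEKK genes Map3k1, Map3k3 and Map3k4, the mixed-lineage kinases Map3k10 and Map3k11 and the stress kinase Map3k6 (ASK2) were the 6. Map3k14, the NIK kinase of noncanonical NF-κB signalling, was called in 3 libraries, and Map3k2 (MEKK2), Map3k5 (ASK1) and Map3k8 (Tpl2) in 2. No peak was listed for 8 symbols, among them Map3k7 (TAK1), Map3k12 and Map3k13, although Map3k20 was in the lists as Zak, with 2, 2, 1 and 0 peaks. None of the 5 MAP4K symbols had a peak.

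Map3k4, which binds the Gadd45 stress proteins, held 2 regions in every library, which lay on chromosome 17 from 12270889 to 12271533 and from 12271632 to 12278076. Its covered bases were 1491 and 1738 in innervated and 1639 and 994 in denervated libraries. The low value of denervated replicate 2 came with the absence of a further region at the 3′ end, from 12227720 to 12232920, which the other 3 libraries held. Map3k1 also held 2 regions in all 4 libraries, with 848 and 449 bases innervated and 848 and 1196 bases denervated. Both genes had overlapping groups.

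Map3k11 and Map3k10, which activate JNK through MAP2K genes, lacked 5′ peaks in denervated replicate 2. Map3k11 covered 1288 and 1437 bases in innervated and 844 and 743 bases in denervated libraries, and the groups did not overlap. The means were 1362.5 ± 105 and 793.5 ± 71.4 (SD, n = 2 each), with an exact permutation p of 0.333 (two-sided). Its 5′ regions at 5689764 to 5690060 and 5690307 to 5690653 of chromosome 19 were present in the other 3 libraries, and its 3′ region from 5700692 to 5702765 in all 4. In denervated replicate 1 that 3′ region covered 445 bases, against 741 to 890 in the other libraries. Map3k10 covered 1490 and 1539 bases innervated and 1935 and 844 bases denervated, values on either side of the innervated ones. Map3k3 covered 501 to 702 and Map3k6 150 to 349 bases per library. Map3k2 had 201 bases in each library numbered 2, and Map3k8 had 247 bases in innervated replicate 1 and 149 in denervated replicate 2.

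Map3k5 and Map3k14 differed between groups in opposite directions. Map3k5, a stress kinase activated by oxidants, was the only member called in both innervated and no denervated library, with 350 and 400 bases on chromosome 10 from 20141602 to 20142001, at 99.6% of its span. Map3k14 covered 0 and 250 bases in innervated and 698 and 946 bases in denervated libraries. Its region at the 3′ end of the span, on chromosome 11 from 103219814 to 103220509, was called in both denervated libraries and in no innervated one, with 399 and 696 bases. The nearest innervated peak of Map3k14 was 18718 bases away along the gene. The scores of that region stood at percentiles 0.464 and 11.7 of their lists. Each of these differences had an exact permutation p of 0.333 (two-sided).

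Among the kinases downstream of p38, Mapkapk3 was called in 3 libraries and Mapkapk2 and Mapkapk5 in 0. Mapkapk3 covered 198, 0, 198 and 248 bases in innervated 1 and 2 and denervated 1 and 2. Mapk1ip1 and Mapk1ip1l, which the name rule takes in, were each absent from 1 library. Mapk1ip1 covered 0 and 1083 bases innervated and 790 and 1084 bases denervated, and Mapk1ip1l covered 551 and 450 bases innervated and 0 and 402 bases denervated.

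The dual-specificity phosphatases were the largest family, with 16 of 24 symbols called and 10 in all 4 libraries. The 10 were 62.5% of the 16, against 48.8% of all called genes, and this was not tested. Of the 10 phosphatases with a kinase-interaction domain, 8 were called, 5 of them in every library: Dusp1, Dusp6, Dusp8, Dusp10 and Dusp16. Of the other 14 phosphatases, 8 were called, 5 of them in every library: Dusp3, Dusp11, Dusp14, Dusp23 and Dusp27. Dusp7 was called in 3 libraries and Dusp18 and Dusp22 in 2, each in 1 library of either group. No phosphatase was specific to a group, where 3.42% of all called genes were denervated only and 3.14% innervated only. With shares this small, none among 16 genes is not a result about the family. Dusp2, Dusp9, Dusp12, Dusp15, Dusp19, Dusp21, Dusp26 and Dusp28 had no peak.

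Dusp1, an immediate-early nuclear phosphatase of p38, JNK and ERK, was covered over more of its length in innervated muscle. Peaks covered 1496 and 1298 bases in innervated and 848 and 748 bases in denervated libraries. All innervated values lay above all denervated values, with means of 1397 ± 140.0 and 798 ± 70.7 (SD, n = 2 each; exact permutation p = 0.333, two-sided). The shared region on chromosome 17, minus strand, ran from 26505939 to 26508124, and its blocks covered 1246 and 1098 bases innervated and 698 and 748 bases denervated. The region at the start of the transcript, from 26508223 to 26508472, whose first bases are printed above, covered 250, 200 and 150 bases in innervated 1 and 2 and denervated 1 and was absent in denervated 2. The highest percentile of a Dusp1 peak was 99.9 in both innervated lists and 46.0 and 33.4 in the denervated lists. Percentiles rank peaks within a list and are not a measure of change.

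Dusp6 and Dusp7, cytoplasmic phosphatases selective for ERK, differed in how often they were called. Dusp6 held 2 regions in all 4 libraries, at 99264632 to 99264981 and 99266091 to 99266291 of chromosome 10, and covered 652 and 702 bases innervated and 401 and 702 bases denervated. A further Dusp6 region, from 99266490 to 99266740, was called in both innervated libraries with 151 and 251 bases and in no denervated one. It stood 198 bases from the nearest denervated peak. Dusp7 covered 643 and 792 bases in innervated and 99 and 0 bases in denervated libraries (means 717.5 ± 105 and 49.5 ± 70.0, SD, n = 2 each, exact permutation p = 0.333, two-sided). Its main region lay on chromosome 9 from 106373698 to 106374340.

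The JNK- and p38-directed phosphatases Dusp8, Dusp10 and Dusp16 had overlapping groups. Dusp10 held 3 regions in all 4 libraries, 1 near the 5′ end on chromosome 1 from 184037086 to 184037629 and 2 near the 3′ end from 184074354 to 184074650 and from 184074995 to 184075291. It covered 1138 and 743 bases innervated and 941 and 644 bases denervated. Dusp16 covered 1342 and 1491 bases innervated and 1441 and 1689 bases denervated, mostly in a region of 1440 bases on chromosome 6 from 134717701 to 134720582. Dusp8 covered 1343 and 1193 bases innervated and 945 and 1293 bases denervated. Dusp4 and Dusp5, nuclear phosphatases, were listed in denervated libraries alone, but each in 1 of the 2, with 497 bases in denervated replicate 1 and 241 bases in denervated replicate 2.

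Dusp27, a muscle protein of the family that lacks phosphatase activity and is needed for sarcomere assembly in zebrafish, had 6 regions, the most of any member together with Mapk4. Peaks numbered 2 and 6 in innervated and 5 and 4 in denervated libraries, covering 945 and 1895 bases and 1944 and 2241 bases. The denervated values lay above the innervated values, but innervated replicate 2 was only 49 bases below denervated replicate 1 (means 1420 ± 672 and 2092.5 ± 210.0, SD, n = 2 each, exact permutation p = 0.333, two-sided). The region from 166100781 to 166108013 on chromosome 1 was called in both denervated libraries and in no innervated one, and began 98 bases beyond an innervated peak. The regions from 166098247 to 166099092 and from 166100036 to 166100682 were called in all 4 libraries.

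The remaining phosphatases held from 1 peak (Dusp13) to 7 peaks (Dusp3) over the 4 lists. Dusp3 covered 643 to 1039 bases per library and Dusp14, which acts on TAB1, 299 to 548. Dusp11, an RNA triphosphatase, covered 301 bases in each innervated library and 201 and 250 bases in the denervated ones. Dusp23 covered 147 to 441 bases, and Dusp13 held 1 peak of 100 bases in denervated replicate 1. Dusp18 held 3 regions in innervated replicate 2 and in denervated replicate 2 and none in the libraries numbered 1, with 550 and 650 bases. Dusp22, which acts in the JNK pathway, had 149 bases in innervated replicate 2 and 99 in denervated replicate 1.

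**Figure D3:**
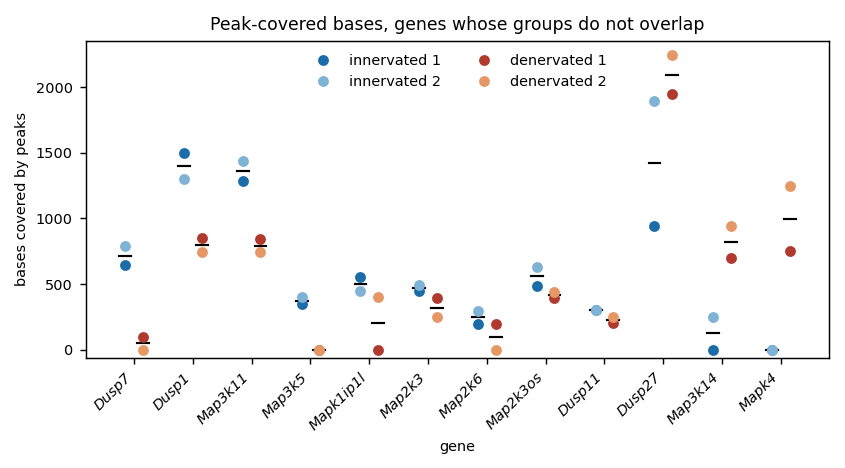
Bases covered by peaks (vertical axis) in the 12 genes whose innervated and denervated libraries did not overlap, with 1 point per library and a bar at the mean of 2. Dusp1 and Map3k11 stood higher in both innervated libraries but were never at 0, whereas Map3k5 and Mapk4 were at 0 in the whole of the opposite group.

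Over all 40 members, both innervated libraries covered more bases than both denervated ones in 9 genes (22.5%), where 14.8% of all called genes did so. These were Dusp1, Dusp7, Dusp11, Map2k3, Map2k6, Map3k5, Map3k11, Map2k3os and Mapk1ip1l. The reverse held in 3 genes (7.5%), Dusp27, Map3k14 and Mapk4, where 13.8% of all called genes did so. The remaining 28 genes overlapped. In 4 of the 9 genes, Map2k3, Map2k6, Map2k3os and Mapk1ip1l, the nearest libraries of the groups were 50 bases or less apart. Dusp11 lay just past that limit, with 301 bases in each innervated library and 250 in denervated replicate 2. The sum over members was 21434 and 24656 covered bases innervated and 22974 and 23469 bases denervated, so the total did not separate the groups.

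Regions that were missing from 1 library were most often missing from denervated replicate 2. Of the 15 member regions called in 3 libraries, 8 lacked denervated replicate 2, 4 lacked innervated replicate 1, 2 lacked innervated replicate 2 and 1 lacked denervated replicate 1. For all other regions the shares were 30.8%, 29.5%, 15.5% and 24.2% in that order. The 8 regions lay in 7 genes, Dusp1, Dusp7, Map2k3, Map2k6, Map3k4, Map3k10 and Map3k11, and 2 of them in Map3k11. Of the 9 genes above that covered more bases in innervated libraries, 5 held such a region. In these 5 genes denervated replicate 1 also lay below both innervated libraries, by 1 base in Map2k6. The choice of the 9 genes requires this, so it is not a separate observation, and the part of denervated replicate 2 was not tested.

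**Figure D4:**
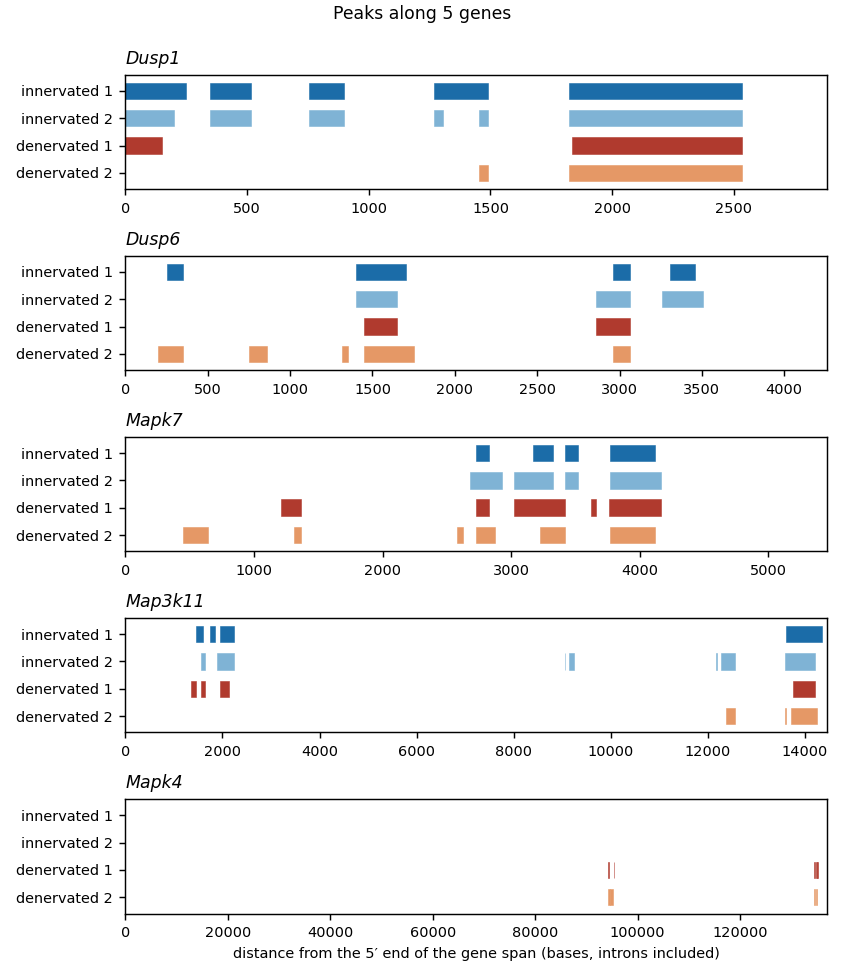
Peak blocks of each IP library (rows) along 5 genes, plotted as the distance in bases from the 5′ end of the gene span, introns included. Dusp1 shows 5′ and middle blocks in both innervated libraries that are fewer in the denervated ones, Mapk7 shows blocks shared by all libraries with further denervated blocks between and to the 5′ side of them, Map3k11 lacks the 5′ blocks in denervated replicate 2, and Mapk4 is empty in both innervated libraries.

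Group-specific regions were 6 of 89 in the denervated direction (6.74%, against 3.67% of all regions) and 2 of 89 in the innervated direction (2.25%, against 4.2%). Mapk4 alone supplied 3 of the 6, and Mapk7, Map3k14 and Dusp27 supplied 1 each. The innervated regions were in Map3k5 and Dusp6. Regions of a gene share its transcript and are not independent. Of these 8 regions, 4 lay in Mapk4 and Map3k5, which had no peak in the other group, and 2 lay within 100 bases of a peak of the other group, against 7.81% of the 1024 group-specific regions of other genes. These 2 were the regions of Mapk7 and Dusp27, and in both the near block was that of denervated replicate 2.

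The width and number of member peaks were set beside those of the other genes, with no test of the difference. Member peaks had a median width of 250, 299, 245 and 250 bases in innervated 1 and 2 and denervated 1 and 2, and those of other genes 249 or 250 bases in every list. Called members held 2.03, 2.03, 2.15 and 1.94 peaks per gene, and other genes 2.13 to 2.25. Per family, peaks per called gene and library ran from 1.44 in MAP2K to 2.44 in MAPK among families of more than 1 gene, with 2.09 in MAP3K and 2.12 in DUSP. The median peak width was 348 bases in MAP3K, 250 in DUSP, 247 in MAP2K and 224.5 in MAPK. Peaks with more than 1 block, which bridge a splice junction, made up 17.1% of the 269 member peaks and 12.6% of the other peaks.

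Many member peaks lay at the 3′ end of the gene span. The final 10% of the span held 41.3%, 41.8%, 42.5% and 43.9% of member peaks in innervated 1 and 2 and denervated 1 and 2, with Wilson 95% intervals that together spanned 29.96% to 55.9%. Other genes had 41.6%, 42.8%, 41.9% and 39.3% in that order, inside the members' interval in each library, and intervals this wide do not show that the shares are alike. By family the share was 61.5% in MAP2K, 43.2% in MAPK, 36.8% in DUSP and 36.2% in MAP3K, and the first 10% held 14.2% of DUSP and 8.70% of MAP3K peaks but none of the MAP2K and MAPK peaks. The names of other kinds had 57.1% of their peaks in the final 10% and 14.3% in the first 10%. Spans include introns, and exons were not annotated here, so these places are not places within the mature transcript.

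**Figure D5:**
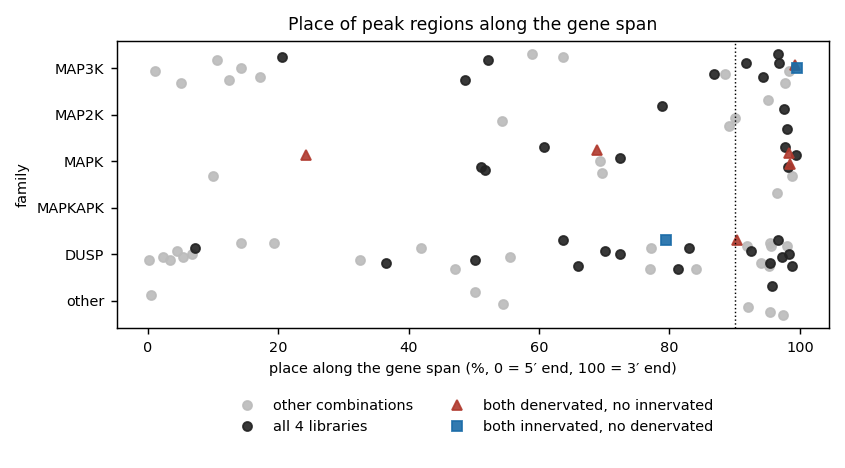
Place of the 89 member regions along the gene span (%, horizontal axis; 0 is the 5′ end) by family, with the dotted line at 90% and symbols for the libraries that held the region. Regions lie to the right of the line in every family (for MAPKAPK, its 1 region), and 3 of the denervated-only and 1 of the innervated-only regions stand at over 98%. Regions near the 5′ end occur in DUSP and MAP3K genes and in Map2k3os.

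Members differed from other genes in the authors' score. Their median percentile was 32.8, 33.1, 35.0 and 34.1 in innervated 1 and 2 and denervated 1 and 2, against 50.01 to 50.7 for other genes, and 32.0% of the member peaks stood in the smaller-score side of their list against 50.3% of the others. The order was the same in all 4 lists, and no test of it was made. Peaks of a gene often share a score, and what the score measures is not given in the sources used here. Among genes called in all 4 libraries, Map2k3os (87.3 to 98.2) and Dusp14 (71.5 to 95.3) had a peak above percentile 70 in every list.

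The rest of the pathway, taken from 5 lists of upstream, scaffold and target genes, was called as follows. Of 118 genes, 63 held a peak and 40 of these (63.5%) were called in all 4 libraries, against 48.8% of all called genes. The same 48.8% stands beside the counts of each list below. Of the 63, 2 were denervated only and 3 innervated only, where 3.42% and 3.14% of all called genes were. Of the 20 called Ras and ERK upstream genes, 14 were in all 4 libraries, including the growth factor receptors Egfr, Fgfr1 and Igf1r and the Ras exchange factor Sos1. Of the 15 called JNK and p38 upstream genes, 10 were in all 4, including the adaptors Traf2, Traf6, Tab1 and Tab2. Of the 20 called kinase and transcription factor targets, 12 were in all 4, including the kinase Rps6ka5, the ETS factor Elk4 and the AP-1 genes Fosl2 and Jun. Of 4 called phosphatases of other families, 3 were in all 4, Ppm1a, Ppm1b and Ppm1d. Of the 4 called scaffold genes, Strn3 was in all 4.

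The group-specific pathway genes stood beside the members as follows. The JNK scaffolds Spag9 (JIP4), with 200 and 250 covered bases, and Sh3rf1 (POSH), with 300 and 250 bases, were called in both denervated and no innervated library. The ERK-regulated kinase Rps6ka1, with 149 and 397 bases, the early gene Fos, with 403 and 551 bases, and Gadd45a, an activator of Map3k4, with 295 and 344 bases, were called in both innervated and no denervated library. Each is 1 gene of a list, and no list was tested.

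Other cell types can contribute to these lists. Of 8 endothelial markers 5 were called, of 8 immune markers 2, of 8 Schwann cell markers 3, of 8 fibro-adipogenic markers 4 and of 8 satellite cell markers 4, and of these 18 only Ngfr, of Schwann cells, was group-specific, in the denervated direction. Of 10 denervation markers 5 were called. Chrnd, Runx1 and Ankrd1 were denervated only, Gadd45a was innervated only and Hdac4 was in all 4 libraries, beside the same 3.42% and 3.14% of all called genes. Chrna1, Chrng, Myog, Ncam1 and Myh3 held no peak. None of 16 skeletal muscle genes, Acta1, Ckm and Ttn among them, held a peak, so the lists do not show the labelled tissue by these markers. Peaks do not measure expression, and the part of other cell types in the members' calls was not tested.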

How the data were processed

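MeRIP-seq peak lists of mouse gastrocnemius were used, 1 per IP library (2 innervated, 2 denervated). Per the submitters' processing notes, STAR 2.4.2a, ChIPseeker and mm10 were used. The peak caller is not given in the sources used here. Per the file headers, each deposited peak has a position, strand, blocks, a gene name and a score. The score, 0 to 0.023, is the authors' own value and was used only within a list, as a percentile (100 for the smallest).

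With Python 3.11.15, peaks that shared at least 1 base of blocks on the same strand were linked into regions, and the linking was tested on 400 simulated regions. A gene or region was group-specific if both libraries of a group and neither of the other held it. All 40 names matched RefSeq symbols (build GRCm38.p6, to which mm10 corresponds), and RefSeq spans gave places; no member region carried a second gene name. For single genes, an exact permutation test over libraries (two-sided, 2 against 2) was made by full enumeration. Wilson intervals (scipy 1.17.1) cover counting error only, and those over peaks take the peaks of a gene as independent, which they are not. Depth is unknown. The members and gene lists were chosen with earlier results of these data known. Every member is named; full values were given for group-specific members and regions and for the 2 members per family with most regions in all 4 libraries. Others given with values were chosen after these were seen. Alternatives were other score sides, equal list sizes, other linking, other gene assignment and leaving out each library. Some results are not reported here.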

Additional observations from a re-analysis of the deposited data

How the results depend on the processing

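Of 113 values under alternative settings, 82 stayed within the limit set (a factor of 1.5 for counts, 1 SD over libraries for other values, and for covered bases the larger SD between replicates of a group), and 31 moved past it. No covered-base difference changed sign. Keeping, per list, the 50% of peaks of smallest score left 3 genes and 3 regions in all 4 libraries, 0 denervated-only genes and regions, 3 innervated-only genes and 6 such regions, 1.75 peaks per gene, a median width of 336.6 bases and 48.1% of peaks in the final 10% of the span. The 50% of largest score left 11 genes and 12 regions in all 4 libraries, 2 denervated-only genes, 0 innervated-only genes and 1 such region, and 39.5% of peaks in the final 10%. Fewer peaks were tested on either side. Mapk4 lost its group-specific call on both sides, where the difference in covered bases was 622 and 374.5, because its peaks stood on opposite sides in the denervated lists, and Map3k5 lost its call with the largest scores, where it was 0. Leaving out 1 library, which loosens the definition, gave 2 to 3 genes and 8 to 12 regions denervated only (3 genes without either innervated library or denervated replicate 2, and 12 regions without either denervated library). It gave 1 to 3 genes and 3 to 10 regions innervated only (3 genes without denervated replicate 1, and 10 regions without it or innervated replicate 1). Reciprocal overlap of 50% gave 4 innervated-only regions against 2. The replicate block, that is, calls and differences within a replicate number, gave the same counts (1 gene each way, 6 and 2 regions) and differences (996.5 for Mapk4, −375 for Map3k5), with exact permutation p = 0.5, the smallest 2 pairs allow. Same-numbered libraries deviated together with a correlation of 0.130 over 40 members, which does not establish pairing. Counting Zak as a member, an alternative chosen after seeing the data, changed no count past the limit. Depth is unknown, so a missing peak does not show a missing mark.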
